A study of Mus musculus with 6 samples.

Results

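The insulin-like growth factor (IGF) genes described here are 10 of the 18193 named mouse genes on the arrays used: the ligands Igf1 and Igf2, the receptors Igf1r and Igf2r, and the binding proteins Igfbp2, Igfbp3, Igfbp4, Igfbp5, Igfbp6 and Igfbp7. They were read through every probe set, a group of short oligonucleotides that reads a transcript, whose platform gene symbol was one of these names. This gave 28 of 45137 probe sets, 23 of 22626 on the Affymetrix array MOE430A and 5 of 22511 on MOE430B, which held probe sets for Igf1, Igf1r and Igfbp3. Another MOE430B probe set was annotated to Igf2r together with a second gene and was left out. The cells were DR4 mouse embryonic fibroblasts, a feeder layer on which stem cells are grown, taken from embryos of day 15 and cultured in 15% serum with LIF, a cytokine used for stem cells, on gelatin. They were the control of 3 embryonic stem cell lines (J1, R1, V6.5), and the labels name no drug or treatment. RNA of 3 replicates was hybridized to 1 array of each type, 6 arrays in all. Replicate 1 came from 12x10e6 cells with RNA at 2.4 ug/ul, and replicates 2 and 3 came from 3x10e6 cells each with RNA at 3.0 ug/ul, in the notation of the labels. The labels give no genotype beyond the name DR4 and do not say whether the replicates were grown separately. A p-value here therefore rests only on the spread between these arrays, which may be technical.

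IGF1 and IGF2 are small secreted proteins that act through IGF1R, a receptor tyrosine kinase that drives growth and survival. IGF2R carries no kinase, takes IGF2 to the lysosome and also sorts mannose 6-phosphate enzymes there. The binding proteins hold IGFs outside the cell and are cut by proteases that release them, and fibroblasts of the embryo are a known source of IGF2 and of several binding proteins. In the mouse Igf2 is expressed from the paternal copy and Igf2r, in most tissues, from the maternal one.

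Promoter sequence is shown for 6 members, 5 of those that had a probe set lowest in replicate 1 and Igfbp7, which was highest there. It comes from RefSeq on build GRCm38.p6, which held a promoter for all 10 genes, and runs 5′ to 3′ over 250 bases before and 50 after the annotated start. Capitals mark the TATA box TATAAA, the GC box GGGCGG and the CCAAT box CCAAT on either strand, and no match overlapped another. The regions are chr7:142657447-142657746 (minus strand) for Igf2, chr17:12769657-12769956 (minus) for Igf2r, chr11:7213874-7214173 (minus) for Igfbp3, chr11:99040994-99041293 (plus) for Igfbp4, chr1:72874816-72875115 (minus) for Igfbp5 and chr5:77407996-77408295 (minus) for Igfbp7.
Igf2: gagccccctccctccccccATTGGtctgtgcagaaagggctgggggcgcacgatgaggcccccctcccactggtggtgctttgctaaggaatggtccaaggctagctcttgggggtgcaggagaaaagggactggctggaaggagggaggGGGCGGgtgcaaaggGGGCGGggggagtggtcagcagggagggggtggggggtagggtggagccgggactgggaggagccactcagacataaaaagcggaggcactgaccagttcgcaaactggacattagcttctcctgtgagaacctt
Igf2r: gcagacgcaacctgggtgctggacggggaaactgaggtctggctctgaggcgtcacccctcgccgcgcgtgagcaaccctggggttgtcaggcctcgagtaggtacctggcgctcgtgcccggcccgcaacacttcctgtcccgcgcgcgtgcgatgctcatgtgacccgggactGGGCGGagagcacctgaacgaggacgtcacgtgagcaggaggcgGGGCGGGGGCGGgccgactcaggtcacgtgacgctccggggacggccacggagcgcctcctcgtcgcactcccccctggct
Igfbp3: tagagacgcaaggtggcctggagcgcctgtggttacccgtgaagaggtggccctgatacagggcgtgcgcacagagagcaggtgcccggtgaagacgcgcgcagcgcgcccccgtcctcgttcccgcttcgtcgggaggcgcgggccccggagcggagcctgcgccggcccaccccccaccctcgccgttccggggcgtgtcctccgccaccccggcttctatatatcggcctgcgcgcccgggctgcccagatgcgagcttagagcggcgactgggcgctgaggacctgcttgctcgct
Igfbp4: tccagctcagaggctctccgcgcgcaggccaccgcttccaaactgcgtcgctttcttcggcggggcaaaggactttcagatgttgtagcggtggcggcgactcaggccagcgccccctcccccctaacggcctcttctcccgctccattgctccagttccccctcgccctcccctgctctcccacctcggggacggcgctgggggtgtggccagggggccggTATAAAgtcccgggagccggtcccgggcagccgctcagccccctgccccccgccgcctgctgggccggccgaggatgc
Igfbp5: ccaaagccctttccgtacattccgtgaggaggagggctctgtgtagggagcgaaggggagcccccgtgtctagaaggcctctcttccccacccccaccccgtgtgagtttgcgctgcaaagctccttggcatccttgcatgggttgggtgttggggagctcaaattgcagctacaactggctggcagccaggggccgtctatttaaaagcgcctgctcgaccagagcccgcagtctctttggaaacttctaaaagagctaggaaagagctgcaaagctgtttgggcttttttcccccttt
Igfbp7: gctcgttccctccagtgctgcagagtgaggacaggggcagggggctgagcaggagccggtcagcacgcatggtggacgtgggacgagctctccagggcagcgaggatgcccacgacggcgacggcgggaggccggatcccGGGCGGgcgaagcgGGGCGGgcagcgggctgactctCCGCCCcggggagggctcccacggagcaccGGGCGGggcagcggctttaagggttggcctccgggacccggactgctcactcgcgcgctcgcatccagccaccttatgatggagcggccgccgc

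The 5 printed promoters of genes with a probe set lowest in replicate 1 had no motif in common. Igf1, Igf1r and Igfbp2 also had such a probe set and are not printed. Igf1 held 1 CCAAT box and Igf1r 2 GC boxes, and Igfbp2 held 3 GC boxes at 1 of its starts. Igf2 is listed with 4 starts, of which the most downstream is printed, with 2 GC boxes and 1 CCAAT box, and the arrays do not tell the starts apart. Igf2r held 3 GC boxes and Igfbp7 4, while Igfbp4 held a TATA box at -28 from the start, and Igfbp3 and Igfbp5 held none of the 3 motifs. Of 32851 promoters of this length, 13.6% held TATAAA, 35.7% GGGCGG and 37.4% CCAAT. The printed promoters had 7 CpG in Igf2, 34 in Igf2r, 37 in Igfbp3, 27 in Igfbp4, 10 in Igfbp5 and 33 in Igfbp7, against a median of 7 over all. These matches describe letters in a window, not binding.

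Values are MAS5 signals on a linear scale. Each array's median signal served as a floor, 685 to 734 on MOE430A and 849 to 917 on MOE430B, and by construction it leaves the same share of probe sets below it on every array. Signals of different probe sets cannot be ranked against each other, because probes differ in brightness. All 10 genes had a probe set above the floor on all 3 arrays of its type, a rule that favours genes with many probe sets. Of the 28 probe sets 24 were above it, 19 of 23 on MOE430A and 5 of 5 on MOE430B. Of all probe sets, 9600 of 22626 were on MOE430A and 8384 of 22511 on MOE430B. The fibroblast label held against its markers: 12 of 12 fibroblast genes were above the floor, against 0 of 6 stem cell genes and 0 of 4 liver and yolk sac genes. Of other cell types, 2 of 6 macrophage, 1 of 5 endothelial, 2 of 5 epithelial and 3 of 5 skeletal muscle genes were above it. On MOE430A the median SD between the replicates was 0.24 on the log2 scale for all 9600 probe sets above the floor, and on MOE430B it was 0.28 for 8384. In bulk RNA a change in the make-up of the culture and a change in RNA per cell cannot be told apart.

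Both ligands were above the floor. Igf2, the main IGF of the mouse embryo, had signals of 56800.1 in replicate 1, against 90427 and 110813 in replicates 2 and 3, on probe set 1448152_at (86013 ± 27276, SD, n = 3). Replicate 1 was the lowest of the 3 arrays, with a log2 difference of -0.82 from the mean of replicates 2 and 3 (adjusted p = 0.544 in limma). Probe set 1415931_at of Igf2 read 817 in replicate 1, against 735 and 5482, so there replicate 3 stood apart and replicates 1 and 2 both lay close to the floor.

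Igf1, which in the adult carries growth hormone action, was read by 4 probe sets, and 3 of them were lowest in replicate 1. On MOE430B (1434413_at) Igf1 had 2822 in replicate 1, against 6628 and 6161. On MOE430A probe set 1452014_a_at had 834 in replicate 1, against 1362 and 1562. Probe set 1437401_at had 639 in replicate 1, under the floor of that array, against 1587 and 1634, which makes Igf1 at least 2.31-fold lower there (adjusted p = 0.114 in limma). Probe set 1419519_at ran the other way within a narrow range, with 1192 in replicate 1 against 1056 and 1018, so the Igf1 probe sets did not move alike.

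**Figure D1:**
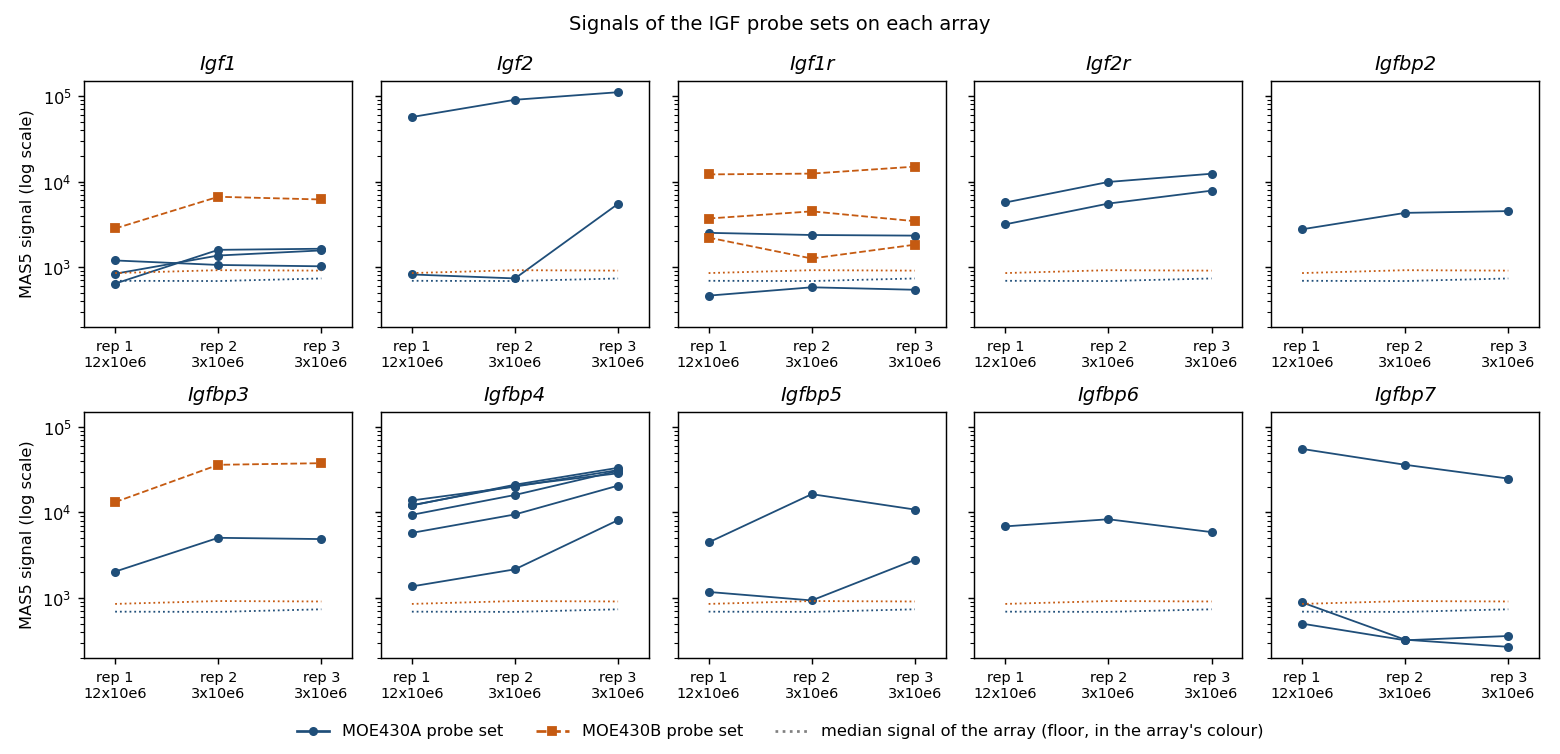
MAS5 signal (log axis) of each IGF probe set on the arrays of replicates 1, 2 and 3, 1 panel per gene, with circles for MOE430A, squares for MOE430B and dotted lines for each array's median signal. Igf2r, Igfbp3 and all 6 Igfbp4 probe sets are lowest in replicate 1, and Igfbp7 is highest there.

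The receptor Igf1r varied little on 1 MOE430A probe set, and Igf2r was lowest in replicate 1 on both of its probe sets. Igf1r, the signalling receptor, had 2509 in replicate 1, against 2367 and 2328, on MOE430A (1426565_at), an SD of 0.06 on the log2 scale. Of the 9600 MOE430A probe sets above the floor, 3.64% had a smaller SD. On MOE430B Igf1r probe set 1452982_at had 12112 in replicate 1 against 12373 and 14929.9, and 1428967_at had 3690.03 against 4475 and 3435. The log2 difference of replicate 1 from the mean of the others was -0.17 for 1452982_at and -0.09 for 1428967_at, and against single arrays it reached -0.30 and -0.28. Probe set 1446303_at on MOE430B was less steady, at 2207 in replicate 1 against 1257 and 1823, and 1452108_at on MOE430A, at 462 against 578 and 541, lay under the floor on every array.

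Igf2r, the clearance receptor, had 3154 in replicate 1, against 5521 and 7814, on probe set 1424111_at. Probe set 1424112_at read 5681 in replicate 1, against 9883 and 12331. Both put the 3 arrays in the same order, with replicate 1 lowest and replicate 3 highest. The log2 difference of replicate 1 from the mean of the other replicates was -1.05 ± 0.37 and -0.96 ± 0.37 (SE), which did not pass the test in limma (adjusted p = 0.298 and 0.37). The difference between the 2 receptors was not tested.

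Among the binding proteins, Igfbp4, an inhibitor of IGF action, was read by 6 probe sets that come from 3 source sequences and so are not independent. Probe set 1423756_s_at had 12032.5 in replicate 1, against 21070.4 and 33204. Probe set 1421992_a_at had 5754 in replicate 1, against 9456 and 20542, and 1421991_a_at had 1360.25 against 2156 and 8113. The spacing of the arrays differed between these. Probe set 1423757_x_at had 9356 in replicate 1, against 15983.5 and 30562, 1437405_a_at had 13787 against 19989.7 and 31244, and 1437406_x_at had 12136 against 20476 and 28643. All 6 put replicate 1 lowest and replicate 3 highest, and their log2 differences lay between -1.61 and -0.86, none past the test (adjusted p between 0.166 and 0.527 in limma).

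Igfbp3, the main IGF carrier of serum, was read once on each array type. On MOE430A (1423062_at) it had 2027 in replicate 1, against 5037 and 4869.7. On MOE430B (1458268_s_at) it had 13181 in replicate 1, against 35998 and 37615. On both types replicates 2 and 3 lay close together and replicate 1 stood below them, 2.43-fold lower on MOE430A (log2 difference -1.28 ± 0.37, adjusted p = 0.13 in limma) and 2.79-fold lower on MOE430B (-1.48 ± 0.36, adjusted p = 0.499). The array types of a replicate may share 1 RNA, so MOE430B is not a second set of samples.

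Igfbp5, a binding protein that also attaches to matrix, held the only member value that passed the test. Probe set 1452114_s_at had 4454 in replicate 1, against 16334 and 10786.5, and fell 2.97-fold (log2 difference -1.57 ± 0.38, adjusted p = 0.0452 in limma). Probe set 1422313_a_at did not follow, with 1172 in replicate 1 against 932 and 2777, where replicate 1 lay between the other arrays (log2 difference -0.45, adjusted p = 0.916). The call was lost with a pseudocount of 1 (adjusted p = 0.0534), with quantile normalization (0.393) and without the filter on dim probe sets (0.813). Probe set 1452114_s_at also carries the suffix that Affymetrix gives where probes can match more than 1 transcript. The same suffix is on 1423756_s_at of Igfbp4 and 1458268_s_at of Igfbp3. Whether probes of the other member probe sets, among them 1423757_x_at and 1437406_x_at of Igfbp4, match other transcripts was not checked.

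The other binding proteins each showed a different pattern. Igfbp2 (1454159_a_at), which is abundant in the fetus, had 2761 in replicate 1, against 4296 and 4505, lowest in replicate 1 (log2 difference -0.67, adjusted p = 0.684 in limma). Igfbp6 (1417933_at), which prefers IGF2, had 6855 in replicate 1, against 8304 and 5874, and replicate 1 lay between the others. On 1423584_at Igfbp7, which binds IGFs only weakly and is found in vessel walls and matrix, had 55230.5 in replicate 1, against 36022 and 24849.7, with replicate 1 highest (log2 difference 0.88 ± 0.38, adjusted p = 0.488). The other Igfbp7 probe sets, 1437804_at and 1423585_at, at 883 against 324 and 267 and at 499 against 319 and 358, were also highest in replicate 1, but lay under the floor on 2 and on all 3 arrays.

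Replicate 1 was set against replicates 2 and 3 over each whole table, since the labels give it another number of cells and another RNA concentration. In limma on log2(signal + 16), the 1 member called among 20 tested on MOE430A compares with 78 of 11066 probe sets called there (0.705%), 54 of them lower in replicate 1 (0.488%) and 24 higher (0.217%). On MOE430B 0 of 5 members and 0 of 10594 probe sets (0%) were called. With an intensity trend in the fit, 5 members were called among 164 of 11066 MOE430A probe sets, and with quantile normalization or without the filter on dim probe sets none was called among members or others. At an unadjusted p under 0.05 stood 15 of the 20 members on MOE430A, where 8.13% of all probe sets did, and 2 of the 5 on MOE430B, where 7.24% did. The MOE430A members at that unadjusted p include the Igfbp4 probe sets, which are not independent, and 1423584_at of Igfbp7, which was higher in replicate 1. With 1 array against 2 the spread of replicate 1 is not measured, and 1 residual degree of freedom remains. The SE rests on replicates 2 and 3 and, more so, on the variance pooled over all probe sets tested. It is therefore not each member probe set's own spread over the 3 arrays.

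Most member values lay lower in replicate 1. On MOE430A 14 of 20 tested member probe sets were below both other arrays (35.6% of all tested were), and 3 of 20 were above both (33.2% of all). On MOE430B the counts were 3 of 5 below both (33.9% of all) and 1 of 5 above both (35.7% of all). Replicates 2 and 3, of equal cell number, differed as well. On MOE430A 14 of the 20 were higher in replicate 3 than in replicate 2 (50.8% of all tested were). On MOE430B 3 of 5 were (48.7% of all). The median log2 difference was -0.98 over the members on MOE430A and -0.01 over all probe sets tested, and -0.17 and 0.03 on MOE430B. A log2 difference of -1 or lower was held by 9 of 20 member probe sets on MOE430A, 4 of them of Igfbp4 (2.49% of all tested), and by 2 of 5 on MOE430B (6.5% of all). They named 6 genes, Igf1, Igf2, Igf2r, Igfbp3, Igfbp4 and Igfbp5. Igf2 is among them only through 1415931_at, where replicate 1 (817) was not lowest but lay between replicate 2 (735) and replicate 3 (5482). The other Igf2 probe set, 1448152_at, had -0.82. Of the members tested, 0 had a log2 difference of 1 or higher, which 1.36% of all tested had on MOE430A and 4.43% on MOE430B. By gene, every tested probe set was lowest in replicate 1 for 4 of the 10, Igf2r, Igfbp2, Igfbp3 and Igfbp4. Igfbp2 was read by 1 probe set only. The share over all genes was not computed, so whether 4 of 10 is unusual is not known.

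**Figure D2:**
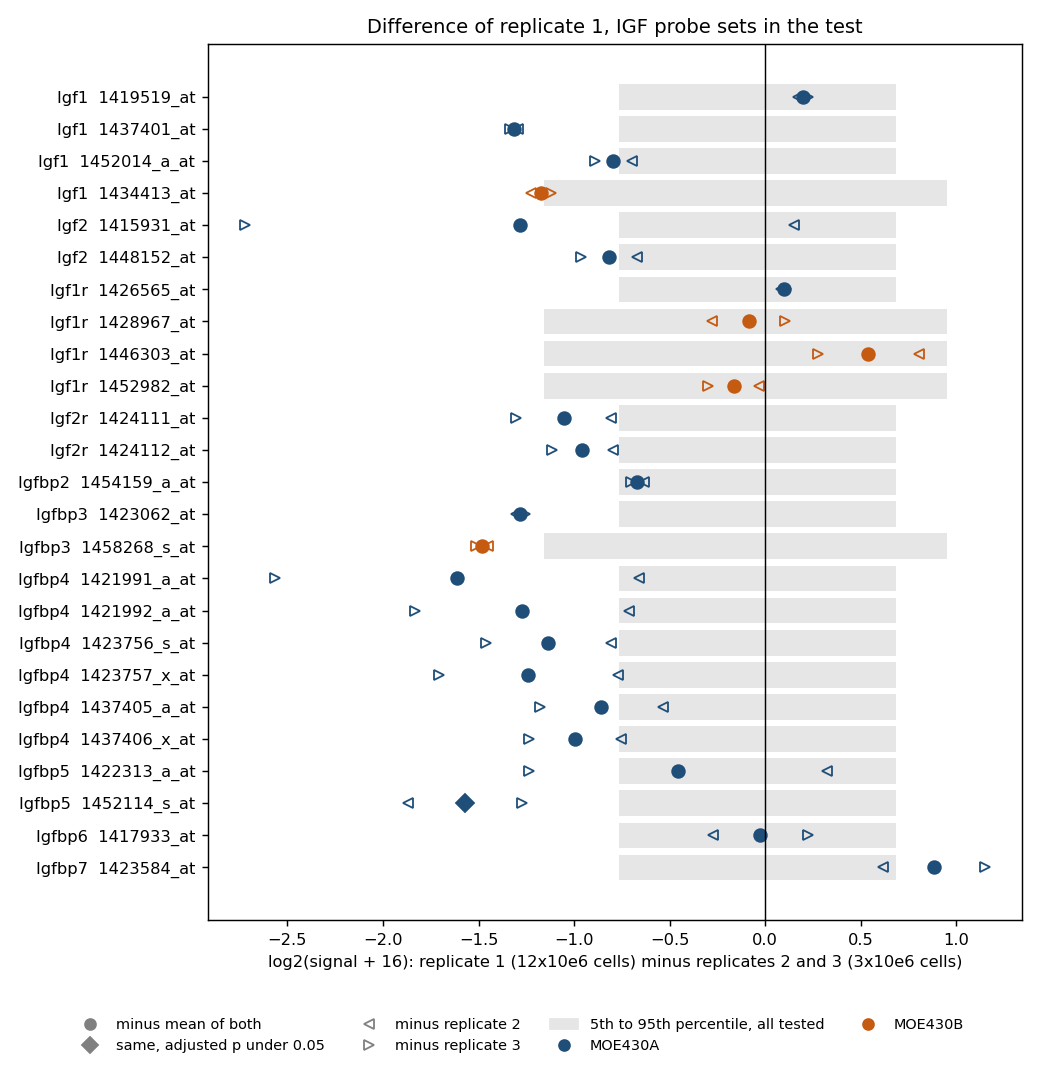
Log2 difference of replicate 1 from the mean of replicates 2 and 3 for the 25 member probe sets tested (filled), with the difference from each of them alone (open triangles) and the range from the 5th to the 95th percentile of all probe sets tested on that array type (grey). Igf2r, Igfbp3 and the called Igfbp5 probe set lie left of the grey range against either array. So do 1437401_at of Igf1 and 1423756_s_at and 1423757_x_at of Igfbp4. The grey range is that of the difference from the mean of both arrays, and no range was made for single arrays. Its lower end on MOE430A is -0.76. Against replicate 2 alone, Igf2r (-0.80 on both probe sets) and these 2 Igfbp4 probe sets (-0.81 and -0.77) lay only narrowly beyond it. The sign differs between replicates 2 and 3 for 4 probe sets, 1 each of Igf2, Igf1r, Igfbp5 and Igfbp6.

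Per the instrument records, replicates 1 and 2 were scanned on the same day and washed on the same station for MOE430A, and replicate 3 on another day and station. Within that shared day, 15 of the 20 member probe sets were lower in replicate 1 than in replicate 2 (50.6% of all tested were). The median log2 difference was -0.68 over the member probe sets and -0.008 over all. Against replicate 2 alone the Igf2 probe set 1415931_at differed by 0.15 and the Igfbp5 probe set 1422313_a_at by 0.33, so their negative values rested on replicate 3. On MOE430B all arrays shared a day, but replicate 1 alone was on its own station, so station and cell number cannot be told apart there.

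Marker sums and RNA quality values are given beside these differences, and Cnn1 is the one marker that passed the test. The smooth muscle genes Acta2, Tagln, Cnn1 and Myh11 had a summed signal of 185624 in replicate 1, against 139661 and 78726 in replicates 2 and 3, so replicates 2 and 3 also differed, and 3 of the 4 genes were above the floor. Cnn1, which encodes an actin-binding protein, rose to 7562 in replicate 1, against 2997 and 1381 (adjusted p = 0.022 in limma), a call lost with quantile normalization and without the filter. The 12 fibroblast genes had a summed signal of 607904 against 704140 and 745878, with 8 of the genes below both other arrays, 3 above both and 0 called. The 4 liver and yolk sac genes Alb, Apoa1, Afp and Ttr all lay under the floor and summed to 762 against 652 and 704. The signal ratio of the 3' to the 5' end was 1.05 against 1.17 and 1.09 for beta-actin and 1.27 against 1.16 and 0.85 for Gapdh on MOE430A, lowest in replicate 1 for one and highest for the other. The part of these in the IGF values was not tested.

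Many IGF probe sets also varied more over the 3 arrays than most probe sets did. The 19 MOE430A member probe sets that exceeded the floor throughout varied by a median SD of 0.62 (log2), and 13 lay above 0.57, the 95th percentile of all 9600. They were 6 of Igfbp4, 2 each of Igf2r and Igfbp5, and 1 each of Igf2, Igfbp3 and Igfbp7. On MOE430B 2 of 5, those of Igf1 and Igfbp3, lay above the 95th percentile of 0.66. Without replicate 1 the median SD of the MOE430A members was 0.35, against 0.18 over all probe sets, so replicates 2 and 3 also differed. Without replicate 2 it was 0.87 against 0.21, and without replicate 3 it was 0.47 against 0.19. On MOE430B the members varied less than all probe sets without replicate 1 (0.191 against 0.215) and without replicate 2 (0.213 against 0.239), and more without replicate 3 (0.569 against 0.227).

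**Figure D3:**
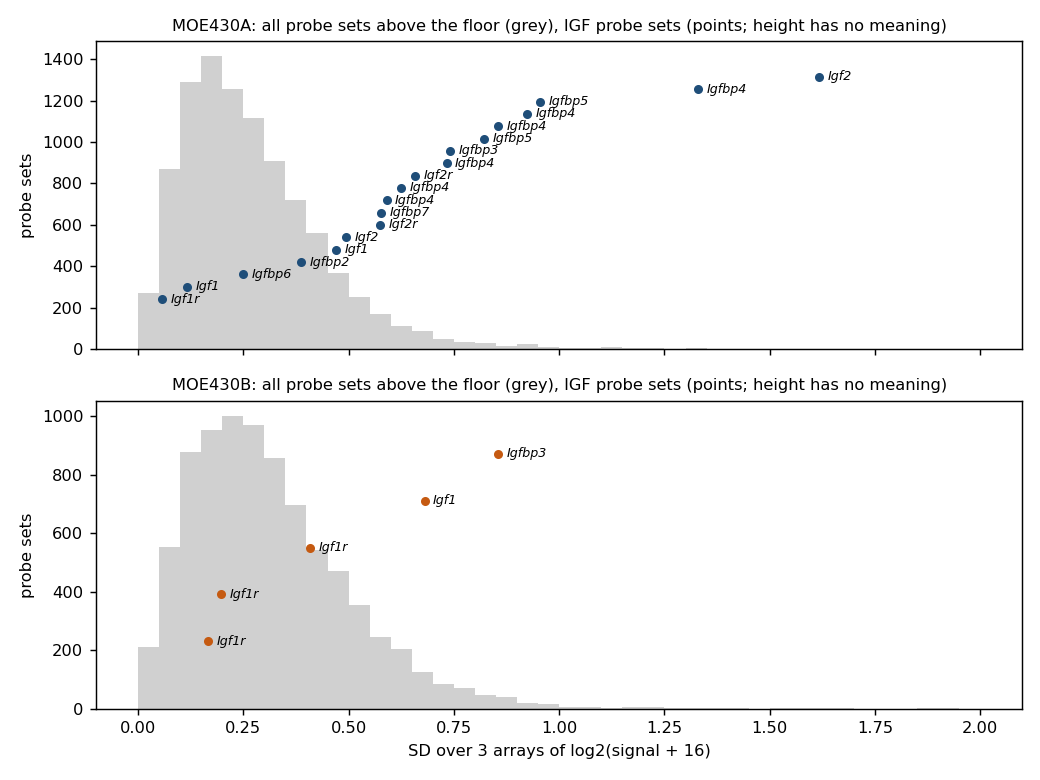
SD over the 3 arrays of log2(signal + 16) for all probe sets above the floor (grey bars, number of probe sets) and for the member probe sets (points), MOE430A above and MOE430B below. The members range between 0.06 for Igf1r and 1.62 for Igf2 on MOE430A, and most lie right of the bulk.

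The 3 most variable member probe sets were set beside all other named genes by the Euclidean distance between mean-centred log2 values over the 3 MOE430A arrays. The Igf2 probe set 1415931_at (SD 1.62) was nearest to Malat1 (distance 0.34), Cyb5r3 (0.46) and Neat1 (0.63), of which Malat1 and Neat1 are long noncoding RNAs of the nucleus. The Igfbp4 probe set 1421991_a_at (SD 1.33) was nearest to Meg3 (0.13), Neat1 (0.15) and Nisch (0.39), and Meg3, an imprinted long noncoding RNA, had 6020.01 in replicate 1 against 9651 and 32272. The Igfbp5 probe set 1452114_s_at (SD 0.96) was nearest to the elastin gene Eln (0.06), Atp5e (0.11) and Sfrp2 (0.16), and Eln had 1005 in replicate 1 against 3777 and 2596. With 3 arrays and 8794 candidate probe sets such likeness is a description.

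Genes that act around the IGFs were read from 5 lists. Among 14 genes for proteases that cut IGF binding proteins, or for inhibitors of such proteases, 14 exceeded the floor and none of their 24 tested probe sets passed the test. The lysosomal protease gene Ctsd had 33812 in replicate 1, against 33468 and 42369, the protease inhibitor gene Timp1 41729 against 22827 and 29263, and Mmp2 10528 against 22066 and 22859.7. Mmp14, a membrane protease gene, had 12498 against 16326 and 22084. Their differences did not run one way: replicate 1 was below both others for 5 of the 14 genes and above both for 4, with a median log2 difference of -0.09.

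Of genes that carry the signal inside the cell, 21 of 23 measured were above the floor and none of 43 tested probe sets passed. The inhibitory adaptor gene Grb10 had 22080.4 in replicate 1, against 26104 and 22515, and the kinase gene Akt1 had 6938 against 6799 and 5433. The GTPase gene Rheb had 6390 against 6053 and 4241, and Shc1, an adaptor gene, had 4441 against 4731 and 7408. Replicate 1 was below both others for 9 of the 18 genes tested and above both for 4, and the median log2 difference was -0.20.

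Of the other carriers, Igfbp1, Igfals and Igfbpl1, none of 3 was above the floor, so the acid-labile subunit Igfals, the serum partner of Igfbp3, was not detected here above the array's median. On the insulin side 1 of 3 genes, the insulin receptor gene Insr, was above it, through an MOE430B probe set with 2300 in replicate 1 against 2235 and 2514. The regulators and imprinted neighbours had 6 of 8 above the floor and 1 call. Plagl1, an imprinted zinc finger regulator known in the mouse to act on Igf2 among other imprinted genes, fell to 6777 in replicate 1, against 19978 and 21186 (3.03-fold, adjusted p = 0.0305 in limma), a call also lost with quantile normalization and without the filter. On MOE430B Plagl1 had 989 against 1841 and 1133 and was not called. Hmga2 had 22229 in replicate 1 against 15457 and 19108, Igf2bp3, which encodes a protein that binds Igf2 mRNA, 2687 against 2124 and 2177, and Ctcf 1204 against 1159.8 and 1612.

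**Figure D4:**
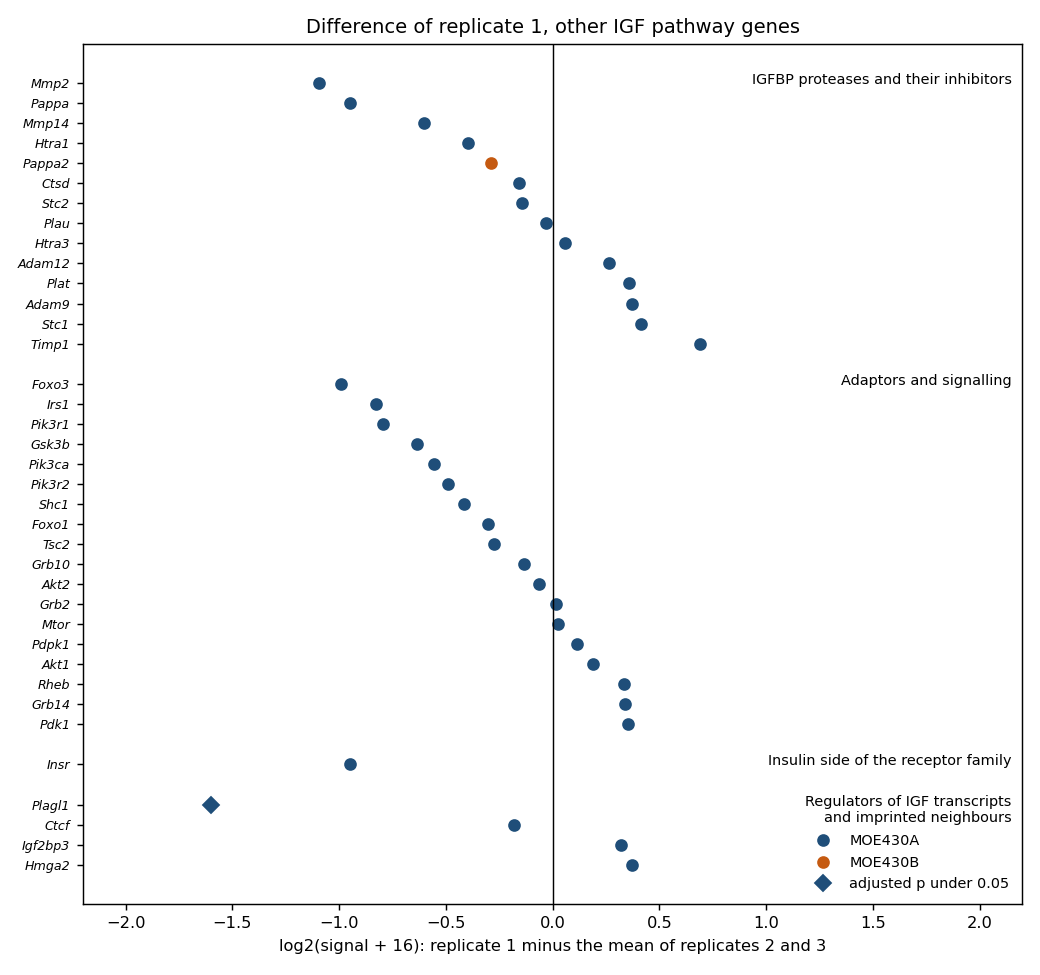
Log2 difference of replicate 1 from the mean of replicates 2 and 3 for the tested genes of 4 IGF pathway lists, 1 probe set per gene, blue for MOE430A and orange for MOE430B. Plagl1, at -1.60, is the one gene past the threshold (diamond), and the signalling and protease genes lie on both sides of 0.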

How the data were processed

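The authors deposited linear intensity values made with MAS5, per the submitters' processing notes, with no version or settings named. The mean leaving out the extreme 2% at each end was 1499.9 on every MOE430A array and 1499.8 on every MOE430B array, a common scaling target. Each table was handled on its own, without its 64 control probe sets. Names came from GEO's platform annotation, with symbols updated by gene identifier against RefSeq. The floor was each array's median signal. The contrast of replicate 1 with replicates 2 and 3 was fitted with limma (3.58.1, R 4.3.3; lmFit, eBayes) on log2(signal + 16) for probe sets whose mean log2 signal exceeded the mean log2 floor, with Benjamini-Hochberg adjustment over the table and an adjusted p of 0.05 as the threshold. Folds are on that scale, which understates changes of dim probe sets, and a bound uses the floor. limma's prior had 25.6 degrees of freedom for MOE430A and 3.49 for MOE430B. Scan day and station came from instrument records. Members, lists and tests were chosen with earlier results of these data known. All members are named, and of each pathway list up to 4 genes by descending mean signal (above the floor), plus genes called; Cnn1, Meg3 and Eln were singled out after their values were seen.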

Additional observations from a re-analysis of the deposited data

How the results depend on the processing

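The 10 member genes stayed above the floor with the 75th percentile or the highest tryptophan control as the floor, and with a fixed signal of 200. That fixed signal lies under every array's median, so it could not lose a gene. By the brightest MOE430A probe set of each gene alone, 9 were above the median floor. The gene lost was Igf1, whose MOE430B probe set was above the floor. The number of MOE430A probe sets called moved most: 0 with quantile normalization, 0 without the filter and 164 with an intensity trend, against 78, and the members called moved to 0, 0 and 5. With a pseudocount of 1 the members called were 0 in place of 1, and the cause of these moves was not tested. With the trend the calls added were Igfbp3 (adjusted p = 0.0171) and 3 probe sets of Igfbp4 (0.0034, 0.0235 and 0.0382). On MOE430B every setting gave 0 calls. The median log2 difference of the MOE430A members was -1.03 with quantile normalization, and -1.24 to -0.68 when replicate 2 or 3 was left out. Leaving out 1 replicate, their median SD was 0.353 to 0.872, and that of the MOE430B members 0.191 to 0.569. All 25 member values kept their sign under the other pseudocounts and quantile normalization, and 23 did without replicate 2 and 23 without replicate 3. Dropping the filter or adding the trend leaves each log2 difference unchanged, so no sign could change under those settings. Without replicate 1 no contrast can be formed. No paired analysis was possible because the arrays that share a replicate number are of different types and read different probe sets. The number of arrays limits the precision.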
